A study of Rattus norvegicus with 13 samples.

Results

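The 10 genes described here are a hand-picked panel of macrophage genes: *Csf1r*, *Adgre1*, *Cd68*, *Cd14*, *Lyz2*, *Mrc1*, *Cd163* and the complement chains *C1qa*, *C1qb* and *C1qc*. They were chosen by symbol, and all 10 had a single row among the 14790 genes of the expression table. RNA-seq was performed on mammary epithelial cells of Wistar-Furth rats, a strain susceptible to mammary cancer, with 6 rats aged 6 weeks, which is inside the window of susceptibility and called within WOS, and 7 rats aged 10 weeks, called outside WOS, and 1 library per rat. The rats were untreated as far as the labels say. Abdominal and inguinal glands, freed of lymph nodes, were digested with collagenase and passed over a nylon filter that kept the ductal fragments. The paper describes the nylon filter for its Hi-C samples and, for RNA-seq, differential centrifugation that collected ductal organoids. According to the study's methods, these organoids are mainly epithelial but also carry stromal fibroblasts and immune cells. The panel was therefore read in a preparation that was not sorted for macrophages. The comparison between the ages asks whether the macrophage component of these preparations differed between rats entering and leaving the WOS.

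Macrophages of the mammary gland lie along ducts and in the stroma and fat around them. They depend on the receptor encoded by *Csf1r*, which binds the growth factors CSF1 and IL-34, and they take part in ductal branching during puberty and in the clearance of dying cells. Their gene products recognise microbes and debris at the surface (*Cd14*, *Mrc1*, *Cd163*), digest them in lysosomes (*Cd68*, *Lyz2*) and mark them for uptake (the C1q chains, which together form the recognition part of the first complement component).

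The upstream sequence is shown for the 4 genes on which the comparisons below turn, *Csf1r* and *Adgre1* because their ratio did not overlap between the ages, and *C1qb* and *C1qa* because they varied together. RefSeq (build GRCr8) gave a start site for 9 of the 10 genes, the exception being *C1qc*. Each line holds the 250 bases before the start, 5′ to 3′ on the gene's own strand. Capitals mark GAGGAA on either strand (TTCCTC where it lies on the opposite strand), the core of sites bound by PU.1, a transcription factor that macrophage development requires.
Csf1r, chr18:56834129-56834378, plus strand: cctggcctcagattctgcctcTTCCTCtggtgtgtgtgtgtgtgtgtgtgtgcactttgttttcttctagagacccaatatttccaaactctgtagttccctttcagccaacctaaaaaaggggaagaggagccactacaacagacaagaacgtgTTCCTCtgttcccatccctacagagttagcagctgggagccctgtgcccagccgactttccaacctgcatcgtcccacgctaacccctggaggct
Adgre1, chr9:2329190-2329439, plus strand: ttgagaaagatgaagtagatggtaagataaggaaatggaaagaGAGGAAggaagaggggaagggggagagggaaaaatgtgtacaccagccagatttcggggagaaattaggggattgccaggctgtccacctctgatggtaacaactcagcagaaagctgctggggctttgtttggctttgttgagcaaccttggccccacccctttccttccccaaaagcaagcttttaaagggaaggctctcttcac
C1qb, chr5:154407828-154408077, minus strand: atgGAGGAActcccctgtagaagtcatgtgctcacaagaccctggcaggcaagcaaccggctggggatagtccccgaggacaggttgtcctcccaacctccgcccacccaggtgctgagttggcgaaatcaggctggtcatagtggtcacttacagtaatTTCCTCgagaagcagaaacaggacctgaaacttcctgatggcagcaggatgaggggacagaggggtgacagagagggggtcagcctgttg
C1qa, chr5:154419934-154420183, minus strand: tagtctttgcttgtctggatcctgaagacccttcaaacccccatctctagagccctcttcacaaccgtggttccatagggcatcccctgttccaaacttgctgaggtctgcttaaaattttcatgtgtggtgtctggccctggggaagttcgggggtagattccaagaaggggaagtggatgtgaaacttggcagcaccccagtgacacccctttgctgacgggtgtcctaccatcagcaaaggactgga
The motif occurred in 7 of the 9 windows, all but those of *Cd163* and *C1qa*, and in 23.3% of the 33469 RefSeq windows of the same length. In *Adgre1* it lay 202 to 207 bases before the start. *C1qb* and *Csf1r* each held it 2 times. A letter match is a description and does not show that the factor binds there. In the RefSeq order of genes on chromosome 5, *C1qb*, *C1qc* and *C1qa* follow each other with no other gene between them.

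Values are given as normalized counts, the authors' estimated counts per gene, scaled per library and rounded. They totalled 13261906 to 15659533 per rat within WOS and 13766735 to 15402814 outside WOS. Pearson correlations between rats on the log2 scale ran from 0.879 to 0.978. All 12 markers of luminal epithelial cells were detected, among them the keratin gene *Krt8*, with 6486 to 15247 normalized counts within WOS and 8857 to 17432 outside WOS. Differences between the ages were tested in limma, fitted to log2(normalized count + 1) of all genes, and positive log2 fold changes mean more expression within WOS. A gene is called differentially expressed (DE) at an adjusted p under 0.05.

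None of the 10 macrophage genes was DE between 6 and 10 weeks in limma, and 1 of them, *Adgre1*, had an unadjusted p under 0.05. Over all 14790 genes, 16.1% were DE, 8.71% with higher expression within WOS and 7.39% with higher expression outside WOS. With 10 genes, a count of 0 is not read as a departure from these shares. The log2 fold changes ran from -0.72 (*Adgre1*) to 0.35 (*Cd163*), with 5 genes above 0 and 5 below, and their median was 0.071, against 0.028 for all genes. The ages overlapped for all 10 genes. The shares of all genes with overlapping ages, or with an unadjusted p under 0.05, are not given here. The counts of the panel for both are therefore descriptions only. In bulk RNA, fewer macrophages and less RNA of these genes per macrophage cannot be told apart.

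**Figure D1:**
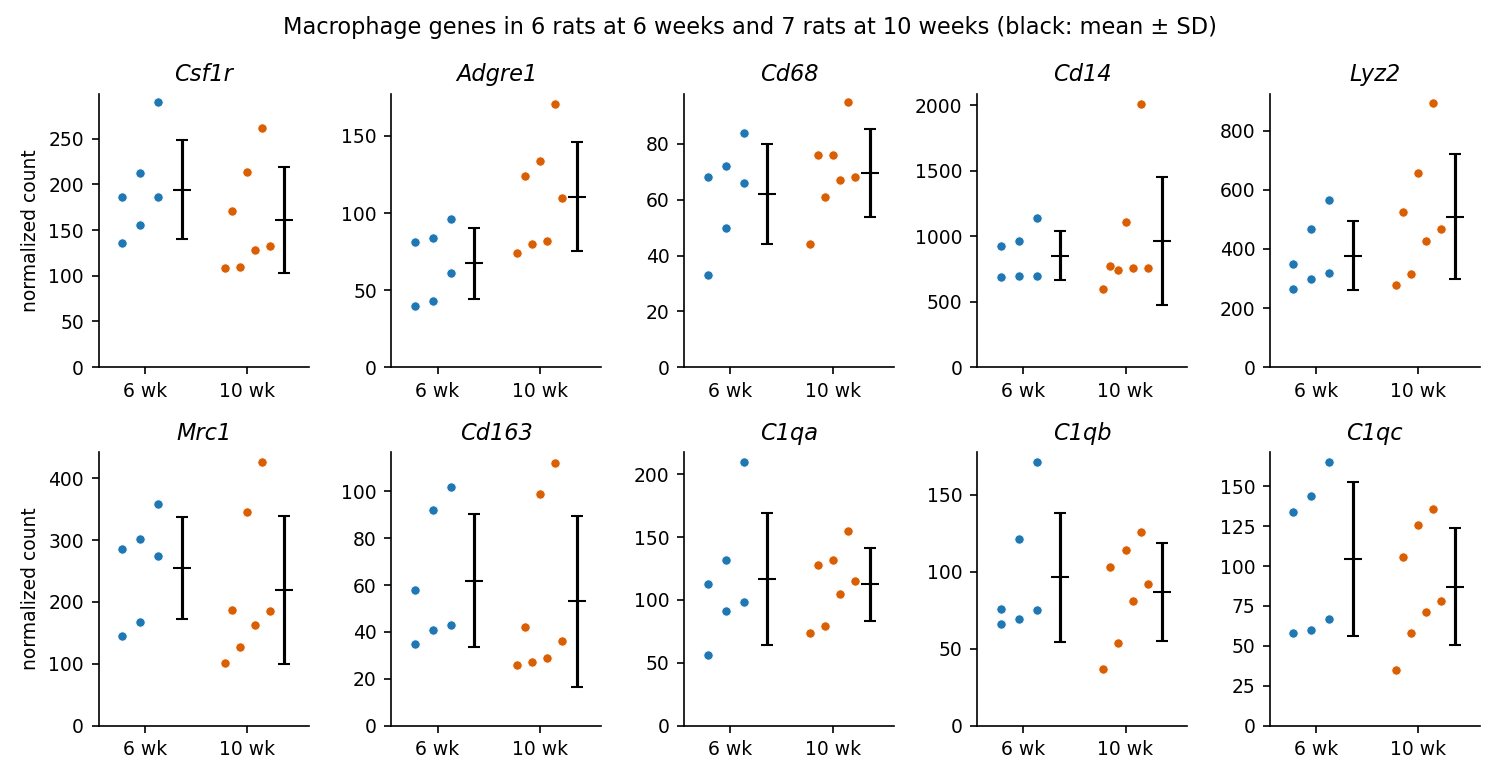
Normalized counts of the 10 macrophage genes, one point per rat, with 6 rats at 6 weeks (blue) and 7 rats at 10 weeks (orange); black marks show the mean and SD, and every vertical axis starts at 0. The ages overlap in every panel, least for Adgre1, where 4 of the 7 rats at 10 weeks lie above all rats at 6 weeks.

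*Csf1r*, the receptor that defines the lineage, had 136 normalized counts in the lowest rat within WOS, 186 at the median and 290 in the highest. Outside WOS these values were 109, 133 and 262. Each of the 6 younger rats exceeded the 10-week median, but 2 of the older rats were above the 6-week median, so the groups overlapped widely. This gave a log2 fold change of 0.30 (standard error, SE, 0.23, 95% interval -0.21 to 0.81, adjusted p = 0.403 from limma). The interval holds a log2 rise of up to 0.81 at 6 weeks as well as no change.

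*Adgre1* encodes the F4/80 antigen, an adhesion G protein-coupled receptor by which mouse macrophages are commonly recognised. Its normalized counts were 40, 71 and 96 (lowest, median and highest) within WOS and 74, 110 and 171 outside WOS. Each of the 6 younger rats fell short of the 10-week median, and each of the 7 older rats exceeded the 6-week median. The means were 67.5 ± 23.1 at 6 weeks (SD, n = 6) and 111 ± 35.3 at 10 weeks (SD, n = 7). The log2 fold change of -0.72 (standard error 0.25, 95% interval -1.27 to -0.17, unadjusted p = 0.0141) had an adjusted p = 0.0709 from limma and so did not pass the threshold. It passed with sample quality weights (adjusted p = 0.00652), a fit that called 5647 of all genes, against 2381 in the main fit. It also passed when rat 86, the highest of the 6-week rats, was left out (log2 fold change -0.84, adjusted p = 0.0473). Across 22 other ways of processing (other scalings, filters, weights, and each rat left out) the log2 fold change stayed between -0.87 and -0.59, with an adjusted p from 0.00652 to 0.155.

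*Cd68*, a lysosomal membrane glycoprotein of phagocytes, was low in all rats. It had 33, 67 and 84 normalized counts (lowest, median and highest) within WOS and 44, 68 and 95 outside WOS. The medians differed by 1 normalized count, and the log2 fold change was -0.19 (95% interval -0.66 to 0.28, adjusted p = 0.591 from limma). *Lyz2*, a lysozyme of macrophages that neutrophils also make, had 263, 333.5 and 567 normalized counts within WOS and 279, 467 and 894 outside WOS. Among the older rats, 5 of 7 exceeded the 6-week median, and the log2 fold change was -0.38 (95% interval -0.97 to 0.20, adjusted p = 0.353).

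*Cd14* encodes the co-receptor that hands bacterial lipopolysaccharide (LPS) to Toll-like receptor 4, and in the mammary gland luminal epithelial cells can express it as well. It had 685, 809.5 and 1141 normalized counts within WOS and 599, 757 and 2012 outside WOS. The highest value was that of rat 81, at 10 weeks, and the next rat of that age had 1111. With all rats the log2 fold change was -0.091 (95% interval -0.64 to 0.45, adjusted p = 0.833 from limma), and without rat 81 it was 0.10 (adjusted p = 0.705), so no direction is given.

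The scavenger receptors varied widely between rats of the same age. *Mrc1*, the mannose receptor, had 145, 279.5 and 358 normalized counts (lowest, median and highest) within WOS and 101, 186 and 426 outside WOS. *Cd163*, which takes up haemoglobin bound to haptoglobin and is the ED2 antigen of resident rat macrophages, had 35, 50.5 and 102 within WOS and 26, 36 and 112 outside WOS. The highest 10-week rat exceeded the lowest 4.22-fold for *Mrc1* and 4.31-fold for *Cd163*, and in both genes a 10-week rat was the highest of all 13. Their log2 fold changes were 0.31 (95% interval -0.41 to 1.04, adjusted p = 0.554) and 0.35 (95% interval -0.51 to 1.2, adjusted p = 0.586 from limma). Within each age, the standard deviation on the log2 scale was 0.65 for *Mrc1* and 0.77 for *Cd163*, against 0.44 for *Csf1r* and 0.68 for *C1qc*.

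The 3 chains of C1q, which tag debris and immune complexes, gave no shared direction between the ages. *C1qa* had 56, 105.5 and 210 normalized counts within WOS and 74, 115 and 155 outside WOS, with a log2 fold change of -0.018 (95% interval -0.60 to 0.56, adjusted p = 0.969 from limma). *C1qb* had 66, 75.5 and 171 within WOS and 37, 92 and 126 outside WOS (log2 fold change 0.16, 95% interval -0.51 to 0.83, adjusted p = 0.757). *C1qc* had 58, 100.5 and 165 within WOS and 35, 78 and 136 outside WOS (log2 fold change 0.25, 95% interval -0.51 to 1.02, adjusted p = 0.661). The sign of *C1qa* changed in 8 of the 22 other ways of processing and that of *C1qb* in 2. The *C1qb* sign rested on rat 70 (-0.023 without it) and rat 74 (-0.024 without it).

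**Figure D2:**
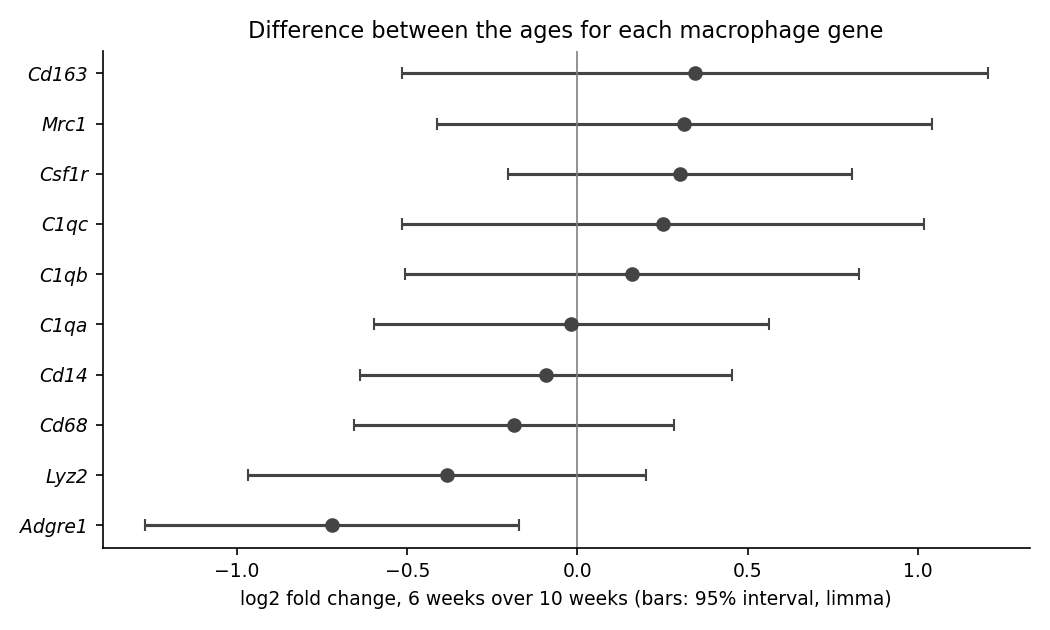
Log2 fold change of each macrophage gene, 6 weeks over 10 weeks, from limma on log2(normalized count + 1); bars are 95% intervals of the single gene, not adjusted for the number of genes tested. The intervals of 9 genes span 0, and that of Adgre1 runs from -1.27 to -0.17.

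The panel varied more between rats of one age than between the ages. The mean of log2(normalized count + 1) over the 10 genes was 7.14 ± 0.40 (SD, n = 6) for rats within WOS and 7.14 ± 0.43 (SD, n = 7) for those outside it. From the lowest to the highest rat it spanned 1.10 within WOS and 1.16 outside WOS. Rat 70 (6 weeks) had the highest mean, 7.76, followed by rats 78 (7.75) and 85 (7.67), both at 10 weeks, and rat 80 (7.38) at 6 weeks. The lowest were rat 74 (6.59) at 10 weeks and rat 84 (6.65) at 6 weeks. The median standard error of the log2 fold change was 0.27 for the 10 genes and 0.20 for all genes.

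Around the mean of their age, the genes moved together across the 13 rats. The Pearson r was above 0 for 41 of the 45 pairs and above 0.5 for 23, with a median of 0.51. These values describe pairs that share libraries and scaling, and they carry no test. *Csf1r*, *Mrc1*, *Cd163* and *Lyz2* formed the tightest set, with r from 0.83 for *Csf1r* and *Cd163* to 0.92 for *Mrc1* and *Lyz2*. The C1q chains formed another, with r from 0.80 to 0.89 among themselves. *Adgre1* went with *Csf1r* (r = 0.72) and *Mrc1* (r = 0.71) and little with *C1qa* (r = 0.17). *Cd14* stood apart from the receptors, with r = -0.047 to *Csf1r* and -0.16 to *Mrc1*, but not from *C1qb* (r = 0.67) and *C1qc* (r = 0.61).

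**Figure D3:**
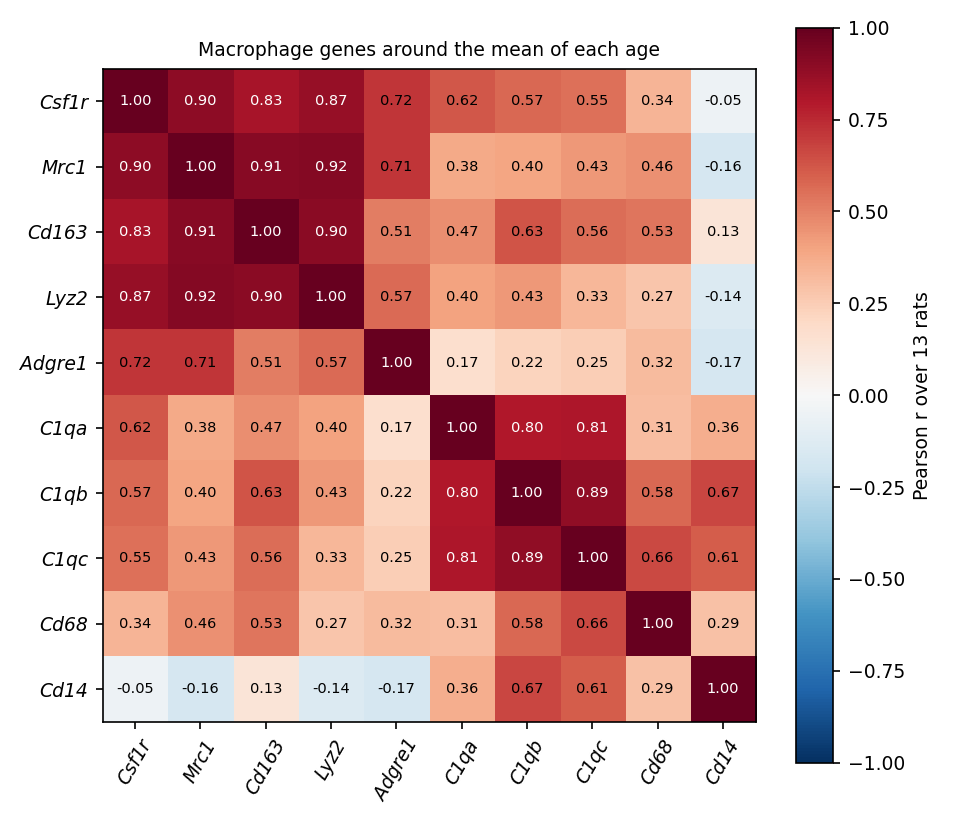
Pearson r between macrophage genes over 13 rats, computed on log2(normalized count + 1) as deviations from the age mean; red is positive and blue negative. Csf1r, Mrc1, Cd163 and Lyz2 (r of 0.83 to 0.92) and the C1q chains (r of 0.80 to 0.89) stand out as blocks, and Cd14 is near or below 0 with the receptors.

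Of 8853 other genes with a mean of at least 100, the gene whose pattern was most like the mean of the panel around the mean of each age was *Irf8* (r = 0.97 over 13 rats), a transcription factor of myeloid and B cells. It was followed by *RT1-Ba*, a class II histocompatibility chain (r = 0.95), *Klf9*, a Krüppel-like transcription factor (r = 0.92), *Laptm5*, a lysosomal protein of blood-derived cells (r = 0.90), and *Pltp*, a phospholipid transfer protein (r = 0.87). The median r of all these genes was -0.048. None of the 5 was DE between the ages in limma, and *Irf8* had a log2 fold change of -0.012 (adjusted p = 0.961).

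Markers of B cells moved with the panel. Of 8 listed, 4 were analysed here, *Ms4a1*, *Cd79b* and *Cr2* among them, and their normalized counts summed to 3 to 114 within WOS and 0 to 231 outside WOS. The sum was 114 in rat 70, 231 in rat 78 and 52 in rat 85, the 3 rats with the highest panel mean, and at most 21 in the other 10 rats. *Ms4a1* was at 0 in 6 of the 13 rats and *Cr2* in 5. Of 11 T cell markers 4 were analysed here, one of them *Cd4*, which rat macrophages express too, and they summed to 150 to 237 within WOS and 168 to 351 outside WOS. The part of lymphocytes in the spread of the panel was not tested. When rats 70, 78 and 85 were left out, a step chosen after the data were seen, again 0 of the 10 genes were DE and 990 of all genes were. *Cd163* then had a log2 fold change of 0.70 (adjusted p = 0.16 from limma), *Mrc1* 0.59 (adjusted p = 0.201), *Csf1r* 0.43 (adjusted p = 0.158) and *Adgre1* -0.60 (adjusted p = 0.204).

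**Figure D4:**
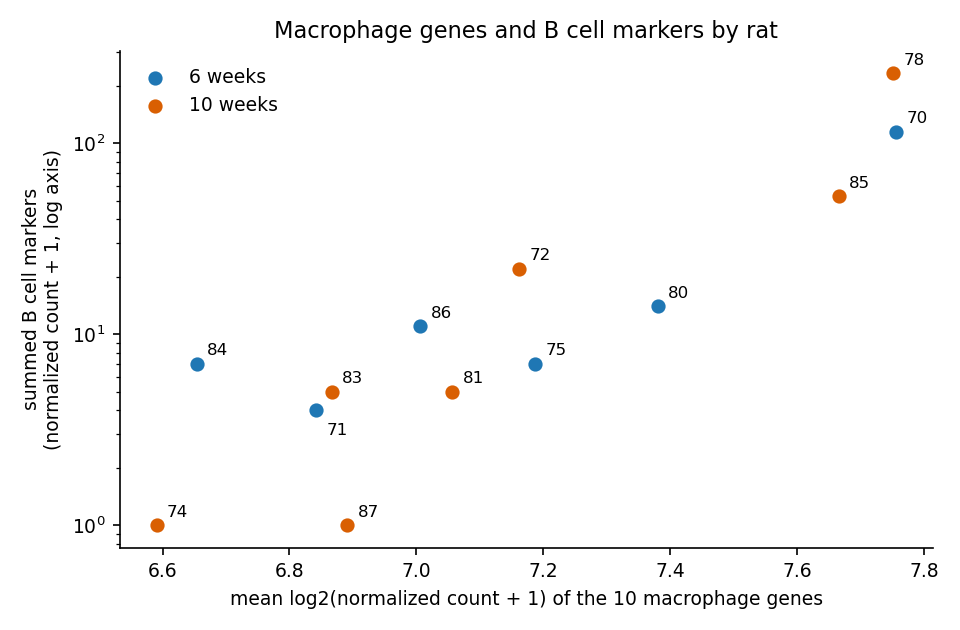
Each point is a rat (numbered), with the mean of log2(normalized count + 1) over the 10 macrophage genes on the horizontal axis and the summed B cell markers, plus 1, on a log vertical axis; blue is 6 weeks and orange 10 weeks. Rats 70, 78 and 85 lie at the upper right, and the remaining 10 rats have a sum of at most 21.

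To compare macrophage genes with each other, each was set against *Csf1r* of the same rat. This step was chosen after the data were seen. Whether *Csf1r* measures the macrophage RNA of a library equally at both ages was not tested. A difference in the ratio of *Adgre1* to *Csf1r* joins their log2 fold changes, -0.72 and 0.30, neither of them DE. The ratio of *Adgre1* to *Csf1r* was 0.290, 0.394, 0.382, 0.215, 0.316 and 0.516 in rats 70, 71, 75, 80, 84 and 86 within WOS. It was 0.725, 0.602, 0.629, 0.752, 0.578, 0.653 and 1 in rats 72, 74, 78, 81, 83, 85 and 87 outside WOS. All rats at 10 weeks thus lay above all rats at 6 weeks, as was the case for 0.642% of all 14789 genes set against *Csf1r*. On the log2(normalized count + 1) scale the ratio differed by -1.02 between the ages (standard error 0.26, 95% interval -1.57 to -0.47, adjusted p = 0.0435 from limma over the ratios of all genes). In this fit 1.26% of genes were called higher at 10 weeks and 1.29% higher at 6 weeks. The adjusted p was close to the threshold. Leaving out 1 rat at a time gave values from 0.0281 to 0.113, of which 2 of 13 passed (without rat 85 and without rat 86), while the difference stayed between -1.14 and -0.89. Without rats 70, 78 and 85 it was -1.02 (adjusted p = 0.0286). With *Csf1r* as a term in the fit, *Adgre1* had a log2 fold change of -0.96 (adjusted p = 0.013), in a fit also chosen after the data were seen that called 4.32% of genes higher at 10 weeks.

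The other genes set against *Csf1r* did not pass. *Lyz2* came closest, with a ratio of 1.41 to 2.52 within WOS and 2.47 to 3.89 outside WOS, which overlapped only through rat 80 at 6 weeks and rat 83 at 10 weeks (difference -0.68 on the log2 scale, 95% interval -1.18 to -0.18, adjusted p = 0.14 from limma). *Mrc1* had the smallest difference, 0.013 (95% interval -0.52 to 0.54), and *Cd163* had 0.045 (95% interval -0.58 to 0.67). Among all 45 pairs of the 10 genes, the ratio did not overlap between the ages for 3, counted in either direction. These were *Adgre1* with *Csf1r*, *Adgre1* with *Mrc1* and *Lyz2* with *Mrc1*. The share among pairs of all genes is not given here, so the count is a description only. With each remaining gene the ratios of *Adgre1* overlapped. Their log2 differences were smallest for *Adgre1* over *Lyz2* (-0.34) and largest for *Cd163* over *Adgre1* (1.07). Of all genes set against *Mrc1*, 0.189% lay higher in every 10-week rat than in every 6-week rat.

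**Figure D5:**
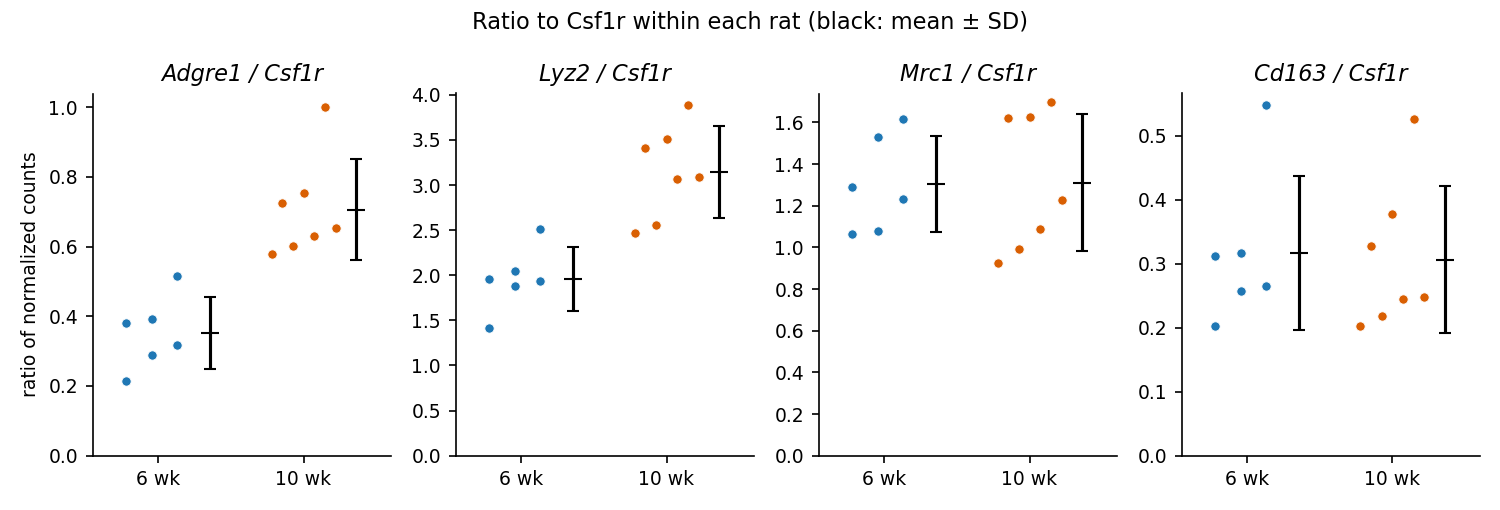
Ratio of normalized counts to Csf1r in the same rat for Adgre1, Lyz2, Mrc1 and Cd163, one point per rat, with 6 weeks in blue and 10 weeks in orange; black marks show the mean and SD. The ages do not overlap for Adgre1, with at most 0.516 at 6 weeks and at least 0.578 at 10 weeks, and they overlap for the other genes.

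Other genes of macrophage pathways were taken from 7 lists. Of 117 rows analysed, 17 were DE (14.5%, against 16.1% of all genes), 12 with higher expression within WOS and 5 with higher expression outside WOS. Without rats 70, 78 and 85, 10 of the 17 missed the threshold and 7 passed it, among them *Csf2*, *Lbp*, *Fcgr2b*, *Lgmn*, *Gpnmb* and *Hexa*. Over all genes, the number called fell from 2381 to 990 in that fit, which had fewer rats. In the list of growth factors and receptors around CSF1, 1 of 6 genes was DE. This was *Csf2*, which encodes the granulocyte-macrophage growth factor GM-CSF. *Csf2* had 42, 48.5 and 60 normalized counts (lowest, median and highest) within WOS and 5, 11 and 27 outside WOS, with no overlap, and differed by 1.97 on the log2 scale (SE 0.26, adjusted p = 0.00049 from limma). It was DE in all 22 other ways of processing. The ligands of the *Csf1r* receptor were not DE, with log2 fold changes of 0.20 for *Csf1* (adjusted p = 0.427) and -0.19 for *Il34* (adjusted p = 0.54).

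Transcription factors of the monocyte and macrophage lineage gave 0 DE genes of 12 in limma, and 1, *Runx1*, had an unadjusted p under 0.05 (log2 fold change -0.43, adjusted p = 0.109). *Maf* had 0.44 (adjusted p = 0.29) and *Cebpa* 0.18 (adjusted p = 0.328). In the complement list, 2 of 23 rows were DE. *Cd59*, an inhibitor of the membrane attack complex, was lower in every rat at 6 weeks (596 to 798 normalized counts) than in every rat at 10 weeks (818 to 1972), with a log2 fold change of -0.86 (adjusted p = 0.00876 from limma, and 0.0505 without rats 70, 78 and 85). *Cfd*, the complement protease adipsin made by adipocytes, was higher within WOS (log2 fold change 1.48, adjusted p = 0.0415), but was DE in 5 of the 13 fits that left out a rat each (adjusted p from 0.0284 to 0.0811). Of 6 adipocyte markers analysed here, 2 (*Adipoq* and *Plin1*) were DE, with higher expression within WOS, and 4 were not. The log2 fold changes of these 4 went both ways, with *Lipe* at -0.38, *Fabp4* at -0.090, *Pparg* at 0.15 and *Cidec* at 0.50. The median of the list was 0.32. The part of adipocytes in the value of *Cfd* was not tested.

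The proteases that act with C1q and the component they cleave were not DE. *C1r* had a log2 fold change of 0.41 (adjusted p = 0.0882) and *C1s* -0.12 (adjusted p = 0.679). *C4b* had -0.58 (adjusted p = 0.0774), and 2 rows named *C4a* had -0.48 (adjusted p = 0.155) and -0.50 (adjusted p = 0.119), but reads of these near-identical copies can be split, so their values are uncertain. *Serping1*, the inhibitor of C1, had -0.048 (adjusted p = 0.917 from limma).

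Around *Cd14*, 2 of 12 genes of LPS sensing and Toll-like receptor signalling were DE. *Lbp*, the plasma protein that carries LPS to CD14, had 2002, 2513.5 and 3390 normalized counts within WOS and 3158, 4617 and 7515 outside WOS. Rat 80 within WOS and rat 85 outside WOS accounted for the overlap. The difference on the log2 scale was -1.0 (SE 0.20, adjusted p = 0.00582 from limma), and *Lbp* was DE in all 22 other ways of processing. *Tlr3*, a receptor for double-stranded RNA, was higher within WOS (log2 fold change 0.70, adjusted p = 0.03), with adjusted p from 0.00855 to 0.072 and 5 of 13 fits passing when each rat was left out. *Tlr4*, the partner of CD14, had -0.31 (adjusted p = 0.279), and *Irak4*, a kinase downstream of it, -0.45 (adjusted p = 0.058). *Ly96* was not analysed here.

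Of 22 phagocytic and scavenger receptors, 2 were DE. *Fcgr2b*, the inhibitory receptor for immunoglobulin G on macrophages and B cells, had 15, 27 and 61 normalized counts within WOS and 30, 55 and 97 outside WOS (log2 fold change -1.02, adjusted p = 0.044 from limma). *Pros1*, a ligand of the phagocytic receptor MERTK, was higher within WOS (log2 fold change 0.55, adjusted p = 0.0443). Each of them was DE in 2 of the 13 fits that left out a rat, with an adjusted p of up to 0.0792 and 0.0954, and *Fcgr2b* also missed the threshold with library size scaling. *Fcgr1a*, the high-affinity receptor, had -0.41 (adjusted p = 0.0897).

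In the list of lysosomal proteins and the phagocyte oxidase 9 of 22 genes were DE, against 16.1% of all genes, and this difference was not tested. Higher expression within WOS was found for 7, among them *Lgmn*, *Gpnmb*, *Lamp1*, *Hexa* and *Ctsz*, and higher expression outside WOS for *Ncf1* and *Ctsc*. *Ctsc* was DE in 2 of the 13 fits that left out a rat (adjusted p of up to 0.088) and missed the threshold with library size scaling, and *Ctsz* was DE in 9 of them (adjusted p of up to 0.0645). *Lgmn*, a lysosomal protease, had 1232, 1465 and 1603 normalized counts within WOS and 801, 923 and 1283 outside WOS (0.60 on the log2 scale, standard error 0.12, adjusted p = 0.00531 from limma). *Ncf1*, a cytosolic subunit of the phagocyte oxidase, went the other way, with 52, 79.5 and 107 normalized counts within WOS and 95, 144 and 225 outside WOS (-0.95 on the log2 scale, standard error 0.23, adjusted p = 0.0145). In *Ncf1*, rat 80 alone among the younger rats overlapped the older ones, through rat 81. Without rats 70, 78 and 85, *Ncf1* had -0.77 and was no longer DE (adjusted p = 0.097). Lysosomal proteins are made by every cell type in the preparation, and their source was not tested.

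Among 20 rows of other myeloid markers 1 was DE, *Arg1*, an arginase of macrophages and other cells, with 221, 314 and 337 normalized counts within WOS and 127, 156 and 263 outside WOS (log2 fold change 0.73, adjusted p = 0.0155 from limma). *Arg1* lost this call without rats 70, 78 and 85 (0.72, adjusted p = 0.0802). *Pf4*, a chemokine of platelets and macrophages, had 1.37 (adjusted p = 0.175) and *Cd80*, a costimulatory ligand, -0.36 (adjusted p = 0.176).

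Marker lists of other cell types were read in the same fit. Of 7 mast cell markers analysed here, 6 were DE with higher expression within WOS and 1 (*Kit*) with higher expression outside WOS. The median log2 fold change was 3.27. *Cpa3*, *Cma1*, *Tpsb2*, *Ms4a2* and *Tpsab1* were higher in every 6-week rat than in every 10-week rat. The summed counts of the list overlapped (1858 to 2906 within WOS and 1523 to 3780 outside WOS). *Kit* dominated these sums, with 1324 to 2190 normalized counts within WOS and 1467 to 3755 outside WOS. Of 7 fibroblast markers, 4 were DE, all with higher expression within WOS (median 1.92). *Col3a1*, the chain of type III collagen, had 69539 to 135326 normalized counts within WOS and 10482 to 30630 outside WOS. Of 8 endothelial markers 1 was DE with higher expression within WOS (median 0.28). For dendritic cells, 5 of 6 markers were not DE, and *Zbtb46* was DE with higher expression outside WOS (log2 fold change -0.39, adjusted p = 0.0379 from limma). *S100a8*, the single neutrophil marker of 9 that was analysed here, had at most 28 normalized counts in any rat and was not DE. None of the 4 T cell markers was DE in limma, and 0 had an unadjusted p under 0.05. Of the luminal epithelial markers 2 of 12 were DE, *Epcam* (log2 fold change -0.39, adjusted p = 0.0454) and *Cdh1* (-0.47, adjusted p = 0.0165), both with higher expression outside WOS. Of 9 basal epithelial markers 1, *Cnn1*, was DE in that direction (-0.46, adjusted p = 0.0357).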

How the data were processed

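The table of 14790 genes holds a value per gene for each of 13 rats. With RSEM 1.2.22 the authors obtained estimated counts, scaled each library and deposited whole numbers. The unit is taken as a score, namely deposited counts that the authors scaled and rounded, here called normalized counts. In 7 of 13 rats some whole numbers from 1 to 30 never occur, so these are not raw counts. The depth before scaling is unknown, and no counting error is given. The submitters' processing notes name build rn5, while the paper names rn6 for other steps; the aligner and annotation are not given in the sources used here. Further deposited columns hold the authors' own comparison of the ages and were not used.

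A pseudocount of 1 was added before taking log2, a minimum mean of 1 removed no gene, and limma 3.58.1 (R 4.3.3) gave all tests. There was no covariate, p-values were two-sided, and adjustment after Benjamini-Hochberg covered all genes, with a threshold of 0.05. Intervals are 95% and unadjusted. The EBSeq, DESeq2 and edgeR of the study need counts and were not used. The fit was tested on simulated data. Figures and motif searches used Python 3.11.15.

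The 10 genes and all lists were chosen with earlier results of these data known. Genes named are the 10, the 3 with the smallest adjusted p in each of 7 pathway lists, direct partners of the 10, and the 5 most like their mean. Others, such as *Gpnmb*, *Lamp1*, *Hexa*, *Ctsz*, *Ctsc* and the markers of other cells, were named after their values were seen. Some genes of these lists, 1 of them due under the rule, are counted but not reported here by name. Alternatives were 3 other scalings, a pseudocount of 0.1, other minimum means, each rat left out, limma-trend, sample quality weights and the first residual component as a term. The ratios to *Csf1r*, the fit with *Csf1r* as a term and the fit without rats 70, 78 and 85 (summed B cell markers above 50) were added after seeing the data. The labels give no batch.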

Additional observations from a re-analysis of the deposited data

Results flagged for a closer look

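In 74 groups of 6 or 7 rats (the macrophage genes and the named pathway genes at each age), 5 held a rat far from the others by Dixon's ratio at the 95% level, where chance gives about 1 in 20. Among the macrophage genes this was *Cd14* in rat 81 at 10 weeks, with 2012 normalized counts against 1111 in the next rat. The same rat had the lowest *Csf1r* of all 13 rats (109) and the highest ratio of *C1qb* and *C1qc* to *Csf1r* (1.05 and 1.16). Among the pathway genes, *Csf2* was at 27 in rat 85 (10 weeks), against 14 in the next rat, and *Fcgr2b* was at 61 in rat 70 (6 weeks), against 31. *Cd80* was at 82 in rat 86 (6 weeks), against 47, and *Maf* was at 19 in rat 74 (10 weeks), against 34 in the next lowest. The causes were not tested.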

How the results depend on the processing

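None of the 10 macrophage genes was called higher at 6 weeks under any of the 22 other ways of processing. The count called higher at 10 weeks was 1 (*Adgre1*) with sample quality weights and 0 to 1 with 1 rat left out at a time, being 1 without rat 86. The count of all genes called was 5647 with sample quality weights, 1411 to 2680 with 1 rat left out (1411 without rat 70, 1488 without rat 84 and 1558 without rat 87) and 990 without rats 70, 78 and 85, a fit with fewer rats added after the data were seen; the cause was not otherwise tested. The sign of *C1qa* turned with library size scaling (0.029) and sample quality weights (0.046), with a range of -0.21 to 0.17 over fits lacking 1 rat. That of *Cd14* turned with sample quality weights (0.077) and ran from -0.19 to 0.10, and that of *C1qb* ran from -0.024 to 0.27. The other 7 genes kept their sign, but with 1 rat left out their size moved, from 0.18 (without rat 80) to 0.56 (without rat 78) for *Cd163*, 0.16 (rat 81) to 0.50 (rat 85) for *Mrc1*, 0.058 (rat 74) to 0.39 (rat 86) for *C1qc*, -0.29 (rat 74) to -0.019 (rat 84) for *Cd68*, 0.18 to 0.43 for *Csf1r* and -0.51 to -0.23 for *Lyz2*. The scalings moved the median of all genes by at most 0.046. Low values, as for *Cd68* and *Cd163*, limit precision, by how much is unknown because the read depth is. No paired analysis was possible because the ages share no rat numbers.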
